A study of Mus musculus with 8 samples.

Results

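The genes described are 37 chromatin regulators with known roles in the 2C-like state of mouse embryonic stem cells, followed across 4 groups of RNA-sequencing libraries. They were taken from a list of gene symbols and looked up by symbol among the 57010 genes of the deposited count table. The list was written from general knowledge of this state, with earlier results of these data known. All 37 were found, each as 1 Ensembl gene, and all 37 passed the filter on low counts. By role they comprise 5 genes of chromatin assembly and histone chaperones, 9 of histone H3 lysine 9 (H3K9) methylation and heterochromatin protein 1 (HP1), 4 of the SUMO pathway, 6 co-repressors, 5 Polycomb genes, 2 Dppa activators and 6 other regulators.

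Embryonic stem cells are grown from the inner cells of the blastocyst and keep the capacity to make every tissue of the embryo. Cells of 2 kinds, Control and HSVTK, each received either DMSO, a solvent, or GANC (ganciclovir), a nucleoside analogue, giving Control DMSO, Control GANC, HSVTK DMSO and HSVTK GANC with 2 libraries per group. In HSVTK cells, a reporter active in the 2C-like state (2C::HSVTK) drives the thymidine kinase of herpes simplex virus, an enzyme that makes GANC poisonous to the cell holding it; the treatment is thus designed to kill 2C-like cells. Strain, dose, duration, the makeup of the Control cells and the number of HSVTK clones are not stated in the labels. Nor do the labels state whether a group's 2 libraries are separate cultures, and p-values cover the spread between these libraries alone, possibly a technical one. The comparisons ask how messenger RNA of the regulators differed with GANC in each kind of cell, whether those responses differed, and how the kinds of cell differed under each treatment.

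Each library held 29704460 to 34184475 counts, and 17976 genes were tested. All 11 listed markers of embryonic stem cells were detected, with Pou5f1 at 255 to 319 FPKM (counts scaled to gene length and library total). Their level differed between the groups. They summed to 6971 and 7052 CPM (counts scaled to library total) in HSVTK DMSO and to 5741 to 6314 CPM in the other 6 libraries. Tdgf1 alone was 1291 and 1316 CPM in HSVTK DMSO and 558 to 849 CPM in the other 6. Under DMSO 7 of 11 were higher and 1 lower in HSVTK than Control cells, where 33.7% of all tested genes differed in either direction. With GANC in HSVTK cells 5 were lower, as were 15.2% of all tested genes. Genes of the 2C-like state went against the labels. Their summed level was 40.1 to 51.2 CPM in 6 libraries and 106 in both libraries labelled HSVTK GANC, where 2C-like cells were to be removed. Of the 18 tested, 13 were higher there than in HSVTK DMSO, as were 13.3% of all tested genes. Zscan4c, a marker of the state, was higher (log2 difference 1.07 ± 0.18 SE, edgeR adjusted p = 4.28e-05). Directions given for these libraries therefore rest on their labels. Other cell types' markers also moved. The 10 primitive endoderm markers summed to 47.6 to 55.3 CPM in Control and 80.3 to 95.4 CPM in HSVTK libraries, most of it from Lama1. The 9 trophectoderm markers summed to 39.2 and 39.8 CPM in HSVTK GANC against 47.1 to 59.4 CPM elsewhere; of these Tfap2c fell from 36.3 and 37.6 CPM in HSVTK DMSO to 18.4 and 18.2 CPM, while Krt8 was highest in HSVTK GANC at 9.80 and 9.95 CPM. The 10 fibroblast or feeder markers summed to 237 to 297 CPM, of which Vim alone gave 216 to 285, and Col3a1, Postn, Dcn, Lum and Acta2 had at most 6 counts in a library. The 6 neuroectoderm markers summed to 121 to 175 CPM, of which Tubb3 alone gave 100.5 to 137. Pax6, also of that list, was 39.95 and 39.62 CPM in Control DMSO and 22.8 and 24.9 CPM in Control GANC. Pax6 was lower in all HSVTK libraries, at 9.66 and 8.94 CPM in HSVTK DMSO and 8.498 and 6.58 CPM in HSVTK GANC. The 7 mesoderm markers summed to 1.99 to 3.999 CPM. These marker genes were named after their values were seen. The part of the marker lists in the results on the regulators was not tested. In bulk libraries, fewer cells of a type and less RNA per cell cannot be told apart.

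The 2C-like state is a rare and passing condition in which stem cells switch on genes and repeats of the 2-cell embryo, above all the Zscan4 genes and the MERVL retrovirus, under the transcription factor Dux. Most of the regulators hold it down: histone chaperones rebuild chromatin after replication, H3K9 methyltransferases with Trim28, HP1 proteins and SUMO close retroviral repeats, and co-repressors and Polycomb complexes close the surrounding genes. Dppa2 and Dppa4 act the other way, upstream of Dux. Several of these proteins work only as part of a complex, so the messenger level of a subunit is not the activity of its complex.

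The regulators varied little. Group means in FPKM lay within 1.5-fold of each other for 36 of 37 genes, and the exception, Atrx, reached 1.52-fold. How many of all genes lay within 1.5-fold was not counted. Of the 37, 22 passed the test in at least 1 of the 4 comparisons between groups and 15 in none. The same count over all tested genes was not made, so these counts are not shown to be particular to the regulators. A gene was called where edgeR's quasi-likelihood test gave a Benjamini-Hochberg adjusted p below 0.05 over all tested genes. In HSVTK cells with GANC against DMSO, 14 regulators were called, 7 higher and 7 lower. They make 37.8% of the 37, where 28.5% of all genes tested were called (13.3% higher, 15.2% lower), and 39.1% of the 8946 genes at or above the mean CPM of Ring1, the regulator with the lowest. The median log2 difference was -0.02 over the regulators and 0.01 over all genes. The median size of the difference, without sign, was 0.14 on the log2 scale against 0.27 over all genes and 0.17 over genes at that level. The share of regulators called was thus near that of genes at or above the mean CPM of Ring1. Here and below, genes at that level, or at the regulators' level, are those at or above this floor. They were not matched to the regulators in abundance. When library totals alone set the scale, the split in HSVTK cells became 8 higher and 5 lower.

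In Control cells 9 regulators were called with GANC, 3 higher and 6 lower, or 24.3% where 8.08% of all genes were called (4.73% higher, 3.35% lower) and 13.6% of genes at that level. This count hung on single libraries: it was 3 without Control DMSO replicate 1, 1 without Control DMSO replicate 2, 14 without Control GANC replicate 1 and 1 without Control GANC replicate 2. The drug responses of HSVTK and Control cells differed for 15 regulators by the interaction test, 7 more positive and 8 more negative in HSVTK cells, or 40.5% against 25.6% of all genes (11.6% more positive, 14% more negative) and 36% of genes at that level. Under DMSO, HSVTK and Control cells differed in 17 regulators, 6 higher and 11 lower in HSVTK, or 45.9% against 33.7% of all genes (16.4% higher, 17.3% lower) and 46.7% at that level. Under GANC they differed in 9, with 3 higher and 6 lower, or 24.3% against 26.1% of all genes (11.1% higher, 14.9% lower) and 35.2% at that level. With library totals as the scale the split under GANC became 7 higher and 4 lower, and over all genes the higher share of calls went from 42.8% to 54.1%. These comparisons share libraries: each group enters 1 drug comparison and 1 comparison between the kinds of cell, and the interaction uses all 8 libraries. Their counts are therefore given side by side only. Without 1 library, the count for HSVTK cells ran from 7 to 18, with 7 and 8 without HSVTK DMSO replicates 1 and 2 and 9 without HSVTK GANC replicate 1. The interaction count was 9 without HSVTK DMSO replicate 2, and 10 without either Control DMSO replicate 2 or HSVTK DMSO replicate 1. The count under DMSO was 10 without Control DMSO replicate 2 or either HSVTK DMSO library.

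**Figure D1:**
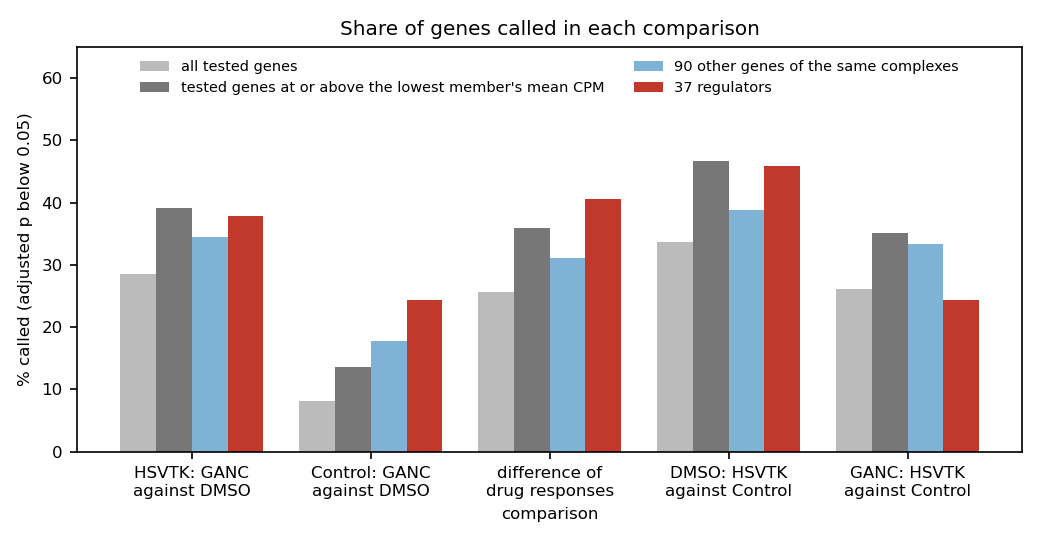
Percent of genes called (y axis) in each of the 5 comparisons (x axis), with 1 bar each for all 17976 tested genes, for genes at or above the lowest regulator's mean CPM, for 90 other genes of the same complexes and for the 37 regulators. In HSVTK cells with GANC the regulators stand at 37.8%, between all genes at 28.5% and genes at or above that CPM at 39.1%. In Control cells they stand at 24.3% against 8.08% and 13.6%.

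**Figure D2:**
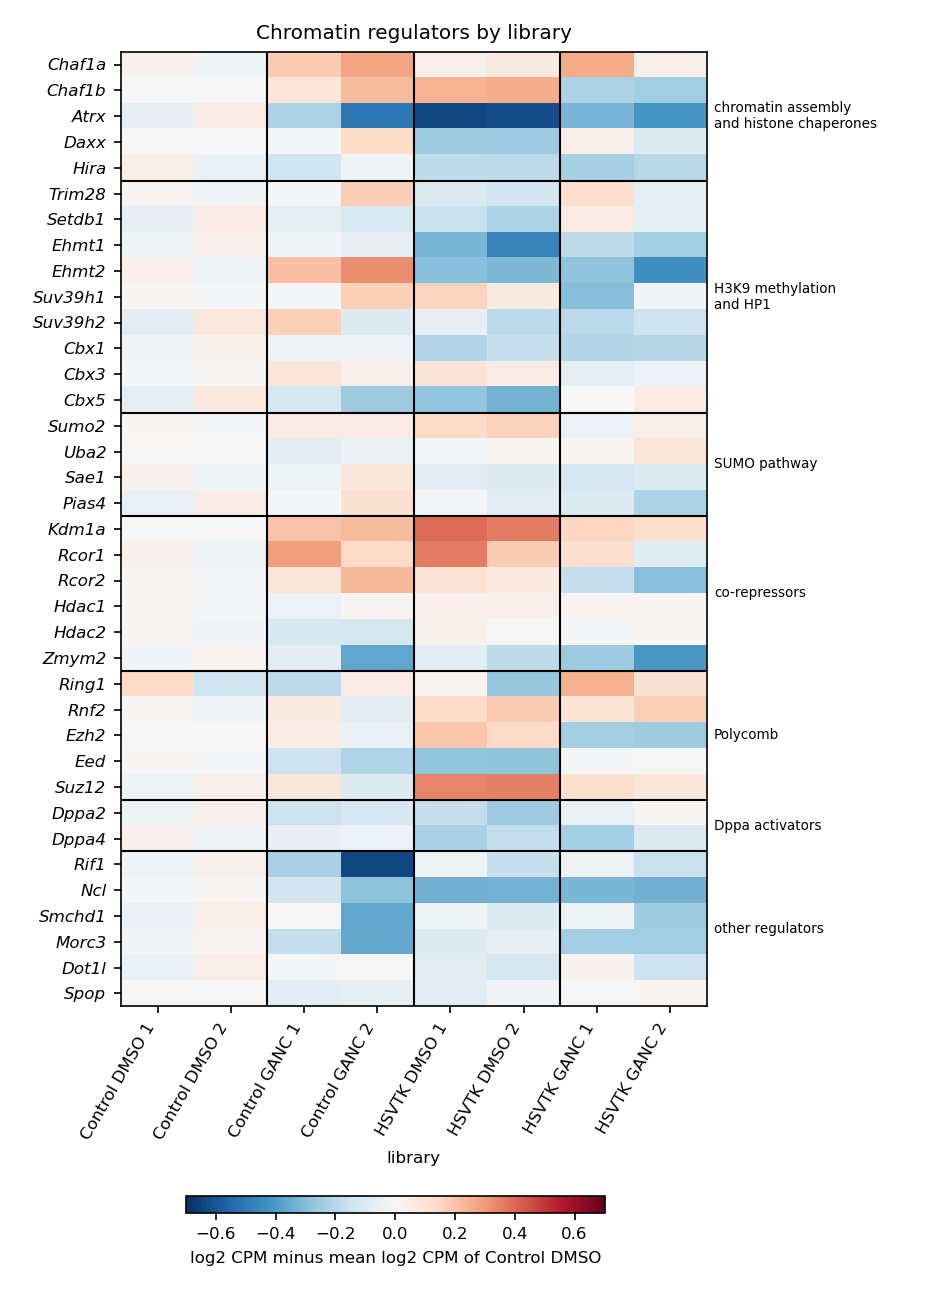
Difference of each library's log2 CPM from the mean log2 CPM of Control DMSO (colour, log2 units) for the 37 regulators in rows and the 8 libraries in columns, ordered by role. Atrx is low in all libraries of Control GANC and HSVTK, Rif1 is lowest in Control GANC replicate 2, and Kdm1a is highest in HSVTK DMSO.

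Among the chromatin assembly genes, Chaf1b, the middle subunit of chromatin assembly factor 1 (CAF-1), which places histones behind the replication fork, fell by 28.4% with GANC in HSVTK cells. Its level was 20.9 and 20.9 FPKM in Control DMSO, 22.4 and 24.4 in Control GANC, 25.2 and 25.5 in HSVTK DMSO and 18.8 and 18.4 in the libraries labelled HSVTK GANC. HSVTK DMSO held the highest libraries and HSVTK GANC the lowest, with no overlap between any groups. The log2 difference in HSVTK cells was -0.48 ± 0.07 (SE, adjusted p = 2.39e-06), the lowest adjusted p of the 37. It differed from the response of Control cells, whose own difference of 0.15 did not pass (adjusted p = 0.162), by -0.64 ± 0.09 (adjusted p = 8.19e-06). Chaf1b was higher in HSVTK than in Control cells under DMSO (0.25 ± 0.07, adjusted p = 0.00326) and lower under GANC (-0.38 ± 0.07, adjusted p = 6.18e-05). Its calls were kept without each library in turn and under every other setting tried.

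Chaf1a, the large subunit of CAF-1, did not follow it. It stood at 12.5 and 12.1 FPKM in Control DMSO, 14.1 and 14.9 in Control GANC, 12.8 and 13.1 in HSVTK DMSO and 15.4 and 13.3 in the libraries labelled HSVTK GANC. In FPKM the GANC libraries of both kinds of cell lay above their DMSO libraries. In CPM as scaled for the test, HSVTK GANC replicate 2 (114.58) lay below HSVTK DMSO replicate 2 (115.684). Only the Control difference passed (0.23 ± 0.07, adjusted p = 0.0418). That difference was lost without any of 5 libraries, namely both of Control DMSO, both of HSVTK DMSO and Control GANC replicate 2. In HSVTK cells it was 0.11 ± 0.07 (95% interval -0.03 to 0.25, adjusted p = 0.255). The ratio of Chaf1b to Chaf1a in FPKM, a pair picked after the values were seen and so given without a test, was 1.59 to 1.74 in Control libraries, 1.97 and 1.95 in HSVTK DMSO and 1.22 and 1.39 in HSVTK GANC.

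Atrx and Daxx, a remodeller and a chaperone that together place the histone variant H3.3 at repeats and telomeres, were both higher with GANC in HSVTK cells, as labelled. Atrx measured 8.80 and 9.60 FPKM in Control DMSO, 7.98 and 6.47 in Control GANC, 6.01 and 6.10 in HSVTK DMSO and 7.63 and 7.20 in HSVTK GANC. Control DMSO was highest and HSVTK DMSO lowest, and GANC stood between them in both kinds of cell. Atrx rose with GANC in HSVTK cells (0.26 ± 0.07, adjusted p = 0.00820) and fell in Control cells (-0.36 ± 0.07, adjusted p = 0.00243), and the responses differed by 0.62 ± 0.10 (adjusted p = 4.78e-05). Under DMSO it was lower in HSVTK than in Control cells (log2 difference -0.63 ± 0.07, adjusted p = 7.67e-08), the largest difference of any regulator in that comparison.

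Daxx was 29.4 and 29.6 FPKM in Control DMSO, 29.7 and 32.3 in Control GANC, 25.2 and 25.2 in HSVTK DMSO and 31.7 and 28.8 in the libraries labelled HSVTK GANC. The HSVTK DMSO libraries lay below the other 6. Daxx was higher with GANC in HSVTK cells (0.23 ± 0.07, adjusted p = 0.0136) and lower in HSVTK than Control cells under DMSO (-0.25 ± 0.07, adjusted p = 0.00568). Hira, the chaperone that places H3.3 in genes, was called in no comparison, with 2.87 to 3.35 FPKM over the 8 libraries. The HSVTK drug calls of Atrx and Daxx were lost without either HSVTK DMSO library or HSVTK GANC replicate 1 (adjusted p from 0.0596 to 0.102 and from 0.111 to 0.217). The Control call of Atrx was lost without replicate 2 of either Control group (0.0565 to 0.0856), and that of Daxx under DMSO without Control DMSO replicate 2 or either HSVTK DMSO library (0.0522 to 0.0618).

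Of the 9 genes of H3K9 methylation and HP1, 3 were higher with GANC in HSVTK cells and 6 did not pass. Cbx5, which encodes HP1 alpha, a reader of methylated H3K9, stood at 56.5 and 62.2 FPKM in Control DMSO, 55.4 and 49.8 in Control GANC, 49.8 and 48.0 in HSVTK DMSO and 61.6 and 64.3 in the libraries labelled HSVTK GANC. HSVTK GANC and Control DMSO were high and the other groups low. Cbx5 was 25.7% higher with GANC in HSVTK cells (log2 difference 0.33 ± 0.06, adjusted p = 7.80e-05) and lower in Control cells (-0.18 ± 0.06, adjusted p = 0.0492), with a difference of responses of 0.51 ± 0.08 (adjusted p = 2.72e-05). In HSVTK against Control cells it was lower under DMSO (-0.31 ± 0.06, adjusted p = 0.000129) and higher under GANC (0.21 ± 0.06, adjusted p = 0.00816). Its HSVTK drug call and its interaction held without each library and under every setting. The Control call was lost without any library but Control GANC replicate 1 (adjusted p from 0.0524 to 0.573), and that under GANC without Control GANC replicate 2 or HSVTK GANC replicate 2 (0.0986 to 0.106).

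The other HP1 genes did not do the same. Cbx1 (HP1 beta) was 107 and 111 FPKM in Control DMSO, 108 and 107 in Control GANC, 96.6 and 99.6 in HSVTK DMSO and 98.9 and 99.3 in the libraries labelled HSVTK GANC. All 4 HSVTK libraries lay below all 4 Control libraries. Cbx1 was lower in HSVTK cells under DMSO (-0.18 ± 0.05, adjusted p = 0.00706, lost without Control DMSO replicate 2 or either HSVTK DMSO library at 0.0548 to 0.149) and under GANC (-0.17 ± 0.05, adjusted p = 0.0161), and its drug differences did not pass. Cbx3 (HP1 gamma) ranged from 33.4 to 36.4 FPKM and was called nowhere. The ratio of Cbx5 to Cbx3 in FPKM, again a pair picked after the values were seen, was 1.69 and 1.84 in Control DMSO, 1.54 and 1.44 in Control GANC, 1.37 and 1.34 in HSVTK DMSO and 1.84 and 1.88 in HSVTK GANC. Cbx1 and Cbx3, like Sumo2 and Ncl, have near-identical pseudogene copies, and the sources used here do not give how reads with several matches were counted, which leaves their levels uncertain.

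Ehmt2 (G9a), which with its partner Ehmt1 (GLP) places the 1- and 2-methyl marks on H3K9, separated the kinds of cell most under GANC. It was 27.6 and 26.4 FPKM in Control DMSO, 31.7 and 33.9 in Control GANC, 22.4 and 22.1 in HSVTK DMSO and 23.1 and 20.9 in the libraries labelled HSVTK GANC. Every HSVTK library lay below every Control library, and the Control GANC libraries were the highest. Ehmt2 was lower in HSVTK than in Control cells under GANC (log2 difference -0.62 ± 0.07, adjusted p = 2.29e-08) and under DMSO (-0.31 ± 0.07, adjusted p = 0.000498). It rose with GANC in Control cells (0.27 ± 0.07, adjusted p = 0.00928), while the HSVTK difference of -0.05 ± 0.07 (95% interval -0.18 to 0.09) did not pass, and the responses differed by -0.32 ± 0.09 (adjusted p = 0.0116).

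Ehmt1 was 11.2 and 11.6 FPKM in Control DMSO, 11.3 and 11.0 in Control GANC, 9.30 and 8.39 in HSVTK DMSO and 10.5 and 10.1 in the libraries labelled HSVTK GANC. The HSVTK DMSO libraries were the lowest. Ehmt1 was lower in HSVTK than in Control cells under DMSO (-0.39 ± 0.07, adjusted p = 5.83e-05) and higher with GANC in HSVTK cells (0.19 ± 0.07, adjusted p = 0.0475). Setdb1, which adds the 3-methyl mark at retroviral repeats, was 18.5 and 20.1 FPKM in Control DMSO, 18.7 and 17.9 in Control GANC, 17.6 and 16.8 in HSVTK DMSO and 20.8 and 19.2 in HSVTK GANC. HSVTK DMSO was again lowest. Setdb1 was higher with GANC in HSVTK cells (0.18 ± 0.07, adjusted p = 0.0340) and lower in HSVTK DMSO than Control DMSO (-0.19 ± 0.07, adjusted p = 0.0266), with a difference of responses of 0.27 ± 0.09 (adjusted p = 0.0312).

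Several of these calls hung on 1 library. The HSVTK drug calls of Ehmt1 and Setdb1 were each lost without either Control DMSO or either HSVTK DMSO library or HSVTK GANC replicate 1, and that of Ehmt1 also without HSVTK GANC replicate 2 (adjusted p from 0.0605 to 0.496 for Ehmt1 and from 0.0668 to 0.320 for Setdb1). Setdb1 lost its call under DMSO without Control DMSO replicate 2 or either HSVTK DMSO library. It lost its interaction without the replicate 2 library of either Control group, either HSVTK DMSO library or HSVTK GANC replicate 1. Its call under DMSO was also lost with library totals as the scale and by the limma fits (adjusted p from 0.0585 to 0.188). Its interaction was also lost with no filter and by limma on log2(FPKM + 1) and log2(FPKM + 0.1) (0.0672 to 0.125). Ehmt2 lost its Control call without replicate 2 of either Control group (0.0768 to 0.148) and its interaction without Control DMSO replicate 2 or HSVTK GANC replicate 2 (0.0603 to 0.0622). Trim28 (KAP1), the scaffold that brings Setdb1 to retroviral repeats, was the most abundant regulator per length at 422 to 513 FPKM and was called nowhere; its HSVTK drug difference was 0.14 ± 0.06 (95% interval 0.02 to 0.26, adjusted p = 0.0635). Suv39h1 and Suv39h2, the 3-methyl enzymes of satellite repeats, were called nowhere either, at 3.13 to 4.19 and 7.06 to 8.98 FPKM.

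**Figure D3:**
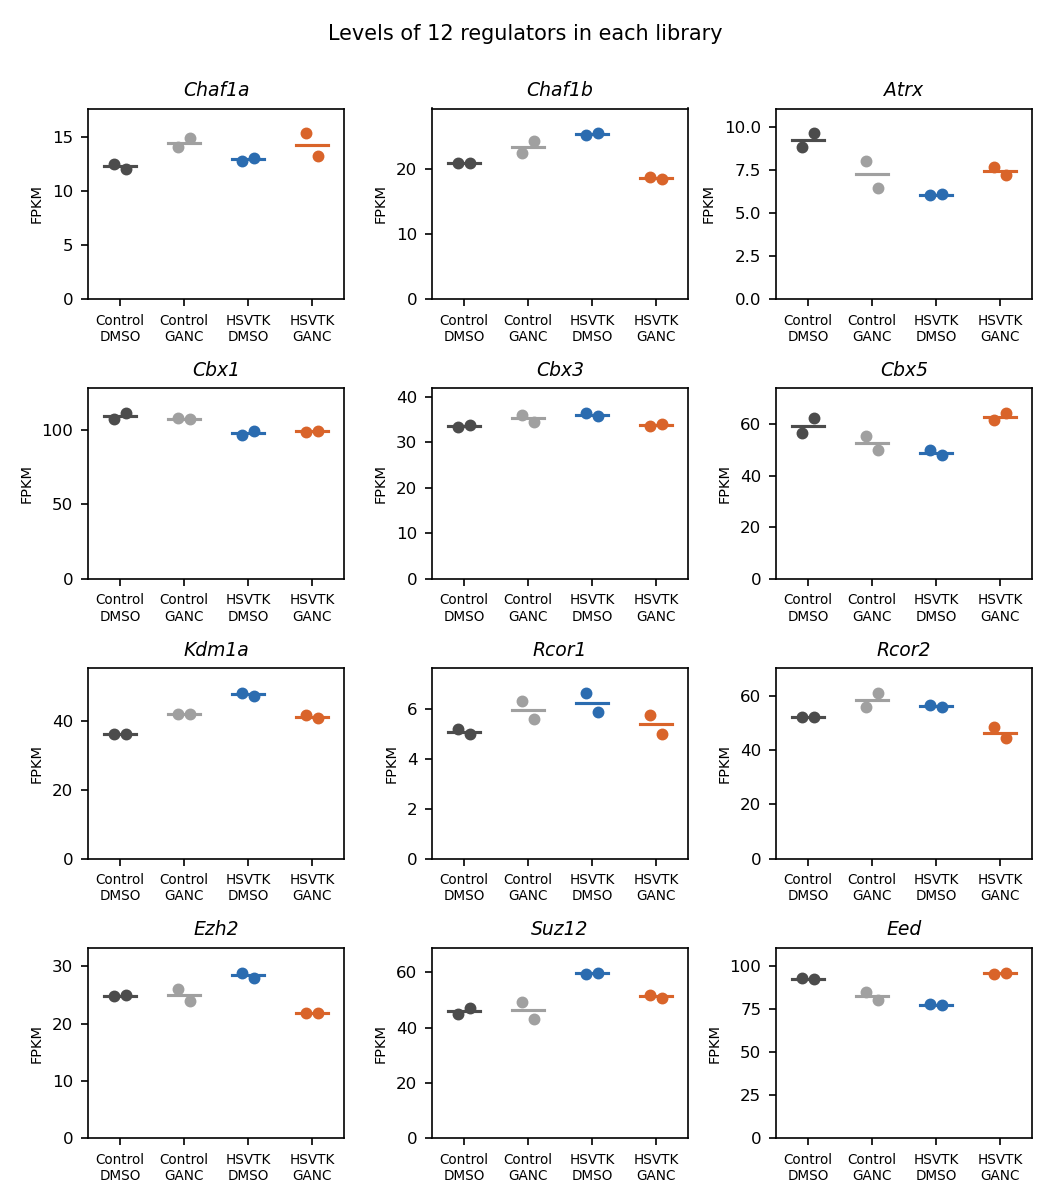
FPKM per library (y axis) for 12 regulators, with 1 point per library and the 4 groups on the x axis; horizontal bars mark the mean of the 2 libraries. Chaf1b and Ezh2 are highest in HSVTK DMSO and lowest in HSVTK GANC, Cbx5 and Eed are lowest in HSVTK DMSO, and all 4 HSVTK points of Cbx1 lie below the Control points.

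Of the 4 SUMO pathway genes, Sumo2 was called in both comparisons of HSVTK DMSO and in the interaction, and Pias4 under GANC. Sumo2, the small protein attached to Trim28 and many other regulators, stood at 245 and 240 FPKM in Control DMSO, 256 and 253 in Control GANC, 271 and 276 in HSVTK DMSO and 246 and 261 in the libraries labelled HSVTK GANC. HSVTK DMSO was highest. Sumo2 fell by 9.68% with GANC in HSVTK cells (log2 difference -0.15 ± 0.05, adjusted p = 0.0375) and higher in HSVTK than Control cells under DMSO (0.15 ± 0.05, adjusted p = 0.0310), with a difference of responses of -0.21 ± 0.07 (adjusted p = 0.0425). These 3 calls were lost without either Control DMSO or either HSVTK DMSO library, and the 2 on the drug also without HSVTK GANC replicate 1. The HSVTK drug call was also lost with library totals as the scale, with no filter, with a replicate block and by the limma fits (adjusted p from 0.0506 to 0.173). Uba2 and Sae1, the subunits of the enzyme that activates SUMO, were called nowhere, at 92.1 to 106 and 144 to 159 FPKM. Pias4, a SUMO ligase, was lower in HSVTK than Control cells under GANC (17.6 and 18.8 FPKM in Control GANC, 16.97 and 15.6 in HSVTK GANC). That difference of -0.21 ± 0.08 (adjusted p = 0.0407) was lost without Control GANC replicate 2, HSVTK GANC replicate 2 or either HSVTK DMSO library. It was also lost with library totals as the scale, with a replicate block, by the limma fits and by the fit of only the 4 libraries compared (adjusted p from 0.0536 to 0.236).

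Among the 6 co-repressors, Kdm1a, Rcor1 and Rcor2 were lower with GANC in HSVTK cells. Hdac1 and Hdac2, which share complexes with them, and Zmym2 did not pass. Kdm1a (Lsd1), which removes methyl groups from H3K4 and holds down MERVL, stood at 36.1 and 36.0 FPKM in Control DMSO, 42.0 and 42.0 in Control GANC, 48.1 and 47.2 in HSVTK DMSO and 41.5 and 40.9 in the libraries labelled HSVTK GANC. HSVTK DMSO was highest and Control DMSO lowest, with the GANC libraries of both kinds of cell between them. Kdm1a fell by 15.4% with GANC in HSVTK cells (log2 difference -0.24 ± 0.06, adjusted p = 0.00162) and rose in Control cells (0.21 ± 0.06, adjusted p = 0.0190), and the responses differed by -0.45 ± 0.08 (adjusted p = 9.27e-05). Under DMSO it was 29.6% higher in HSVTK than in Control cells (0.37 ± 0.06, adjusted p = 5.52e-06), and under GANC it was not called.

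Rcor2, a CoREST scaffold of Lsd1 with a higher FPKM than Rcor1 in every library, measured 52.3 and 52.1 FPKM in Control DMSO, 56.1 and 61.1 in Control GANC, 56.7 and 55.8 in HSVTK DMSO and 48.5 and 44.4 in the libraries labelled HSVTK GANC. The HSVTK GANC libraries lay below the other 6. Rcor2 fell by 19.3% with GANC in HSVTK cells (log2 difference -0.31 ± 0.06, adjusted p = 0.000501), differed in response from Control cells by -0.47 ± 0.09 (adjusted p = 0.000284) and was lower in HSVTK than Control cells under GANC (-0.39 ± 0.06, adjusted p = 3.56e-05). Rcor1, its paralogue, was 5.19 and 4.999 FPKM in Control DMSO, 6.32 and 5.58 in Control GANC, 6.65 and 5.87 in HSVTK DMSO and 5.76 and 5.01 in HSVTK GANC. The 2 libraries of each HSVTK group lay far apart, and those of HSVTK DMSO stood narrowly above those of HSVTK GANC.

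Rcor1 was lower with GANC in HSVTK cells (-0.25 ± 0.10, adjusted p = 0.0481), with an interaction of -0.47 ± 0.14 (adjusted p = 0.0110), and higher in HSVTK than Control cells under DMSO (0.27 ± 0.10, adjusted p = 0.0293). The HSVTK drug call and the interaction were lost without replicate 1 of HSVTK DMSO or replicate 2 of HSVTK GANC. The call under DMSO was lost without HSVTK DMSO replicate 1 or either Control DMSO library. By DESeq2, by scaling with library totals and by the limma fits, the HSVTK drug call was lost too (adjusted p from 0.0817 to 0.312). The calls of Rcor2, and those of Kdm1a other than in Control cells, held without each library and under every setting, while the Control call of Kdm1a was lost without either Control DMSO library or Control GANC replicate 2 (0.0578 to 0.170). Hdac1 and Hdac2, the deacetylases that these complexes share, stayed within 89.9 to 96.7 and 42.8 to 49.1 FPKM and were called nowhere. The HSVTK drug difference of Hdac1 was -0.01 with a 95% interval of -0.12 to 0.10. Zmym2, a zinc finger protein that binds SUMO and the Lsd1 complex, ranged from 5.33 to 6.96 FPKM and was not called.

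Polycomb repressive complex 2 (PRC2) places the methyl marks on histone H3 lysine 27, and its core holds Ezh2, the enzyme, with Eed and Suz12, without which the enzyme is inactive. With GANC in HSVTK cells Ezh2 and Suz12 were lower and Eed was higher. The 250 bases before the start site of each are shown, with those of Chaf1b, because the messengers of 1 complex moved apart and Chaf1b had the lowest adjusted p. They are RefSeq sequences of build GRCm38.p6, whereas the counts were made on GRCm39 per the submitters' processing notes. Each is written 5′ to 3′ on the gene's strand, and capitals mark matches, on either strand, to an E2F site (TTTGGCGC, TTTCCCGC, TTTCGCGC or TTTGCCGC) or an NRF1 site (GCGCA, any base, GCGC).
Ezh2, chr6:47595031-47595280, minus strand: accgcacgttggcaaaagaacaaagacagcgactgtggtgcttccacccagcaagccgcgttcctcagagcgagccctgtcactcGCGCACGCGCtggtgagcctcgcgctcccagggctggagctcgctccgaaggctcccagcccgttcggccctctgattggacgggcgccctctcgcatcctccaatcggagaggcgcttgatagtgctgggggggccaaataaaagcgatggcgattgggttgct
Suz12, chr11:79992856-79993105, plus strand: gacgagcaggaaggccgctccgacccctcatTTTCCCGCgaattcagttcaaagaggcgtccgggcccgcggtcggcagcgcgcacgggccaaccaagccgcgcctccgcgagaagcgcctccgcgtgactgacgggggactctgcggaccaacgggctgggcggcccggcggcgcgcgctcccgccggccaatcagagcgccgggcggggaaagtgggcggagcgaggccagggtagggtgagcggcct
Eed, chr7:89980977-89981226, minus strand: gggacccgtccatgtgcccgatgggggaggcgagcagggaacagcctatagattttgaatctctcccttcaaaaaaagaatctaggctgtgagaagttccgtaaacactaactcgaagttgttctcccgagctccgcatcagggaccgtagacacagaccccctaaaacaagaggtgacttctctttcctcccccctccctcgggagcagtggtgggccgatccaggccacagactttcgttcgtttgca
Chaf1b, chr16:93883651-93883900, plus strand: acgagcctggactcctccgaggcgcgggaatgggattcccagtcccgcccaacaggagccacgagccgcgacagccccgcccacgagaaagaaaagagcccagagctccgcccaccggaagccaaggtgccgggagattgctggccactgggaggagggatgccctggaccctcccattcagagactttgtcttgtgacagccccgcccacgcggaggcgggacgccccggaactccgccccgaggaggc

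The Ezh2 window held 1 NRF1 match, starting at position -165 from the start site, the Suz12 window 1 E2F match, at -219, and those of Eed and Chaf1b neither. Over all 32851 promoters of the table, 1.86% of windows of this length held an E2F match and 3.74% an NRF1 match. Promoter entries were matched for 31 of the 37 regulators, some with several, which gave 38 entries. An E2F match lay in 4 of the 38 entries (1 each of Suv39h1, Cbx3, Suz12 and Ncl). An NRF1 match lay in 5 (1 each of Ehmt1, Suv39h1, Suv39h2, Cbx5 and Ezh2). The promoters were not matched for G and C content. The windows were 63.6% G and C with 23 CpG pairs for Ezh2, 73.6% with 37 for Suz12, 54.4% with 12 for Eed and 68.4% with 21 for Chaf1b, against medians of 52.4% and 6 over all promoters. A match describes letters only.

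Ezh2 stood at 24.9 and 24.9 FPKM in Control DMSO, 26.1 and 24.0 in Control GANC, 28.9 and 27.9 in HSVTK DMSO and 21.9 and 21.9 in the libraries labelled HSVTK GANC. HSVTK DMSO was highest and HSVTK GANC lowest, and the Control groups overlapped. Ezh2 fell by 24.8% with GANC in HSVTK cells (log2 difference -0.41 ± 0.06, adjusted p = 6.92e-06), while the Control difference was 0.00 ± 0.06 (95% interval -0.12 to 0.12), and the responses differed by -0.41 ± 0.09 (adjusted p = 0.000625). It was higher in HSVTK than Control cells under DMSO (0.16 ± 0.06, adjusted p = 0.0350, lost without any library of these 2 groups at 0.0939 to 0.236) and lower under GANC (-0.25 ± 0.06, adjusted p = 0.00283).

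Eed, which reads the mark that Ezh2 places, measured 93.0 and 92.4 FPKM in Control DMSO, 84.9 and 80.2 in Control GANC, 77.9 and 77.7 in HSVTK DMSO and 95.6 and 96.4 in the libraries labelled HSVTK GANC. Its order over the HSVTK groups was the reverse of that of Ezh2. Eed was 20.5% higher with GANC in HSVTK cells (log2 difference 0.27 ± 0.05, adjusted p = 0.000359) and lower in Control cells (-0.18 ± 0.05, adjusted p = 0.0401), with a difference of responses of 0.45 ± 0.08 (adjusted p = 6.54e-05). In HSVTK against Control cells it was lower under DMSO (-0.28 ± 0.05, adjusted p = 0.000162) and higher under GANC (0.17 ± 0.05, adjusted p = 0.0218). The Control call was lost without either DMSO library of either kind of cell or Control GANC replicate 2. It was also lost under 7 other settings (adjusted p from 0.0511 to 0.148). The call under GANC was lost without any library but Control GANC replicate 1. It was also lost with no filter and by the fit of only the 4 libraries compared (0.102 to 0.131).

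Suz12, which holds the complex together, was 44.9 and 47.2 FPKM in Control DMSO, 49.3 and 43.2 in Control GANC, 59.3 and 59.8 in HSVTK DMSO and 51.8 and 50.8 in the libraries labelled HSVTK GANC. In FPKM all HSVTK libraries were above all Control libraries, and HSVTK DMSO was highest. In CPM as scaled for the test, HSVTK GANC replicate 2 (244.884) was no higher than Control GANC replicate 1 (244.891). Between the kinds of cell under GANC, Suz12 was not called. Suz12 fell by 15.8% with GANC in HSVTK cells (log2 difference -0.25 ± 0.06, adjusted p = 0.00240) and was 27.0% higher in HSVTK than Control cells under DMSO (0.34 ± 0.06, adjusted p = 4.74e-05). Its interaction of -0.25 ± 0.09 (adjusted p = 0.0340) was lost without any of 5 libraries, namely the replicate 1 library of either Control group, either HSVTK DMSO library or HSVTK GANC replicate 2. That interaction was also lost with library totals as the scale and by the limma fits (adjusted p from 0.0598 to 0.253). The ratio of Ezh2 to Eed in FPKM, a pair picked after the values were seen, was 0.267 and 0.270 in Control DMSO, 0.308 and 0.299 in Control GANC, 0.371 and 0.359 in HSVTK DMSO and 0.229 and 0.227 in HSVTK GANC. The ratio of Ezh2 to Suz12 was 0.528 to 0.556 in the Control libraries, 0.488 and 0.467 in HSVTK DMSO and 0.422 and 0.431 in HSVTK GANC. Of the PRC1 ubiquitin ligases, Rnf2 (Ring1B) was 31.1 to 38.4 FPKM and Ring1 2.17 to 3.18 FPKM, and neither was called in any comparison. The HSVTK drug difference of Ring1 was 0.30 ± 0.15 (95% interval -0.01 to 0.60), the widest interval of the regulators.

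**Figure D4:**
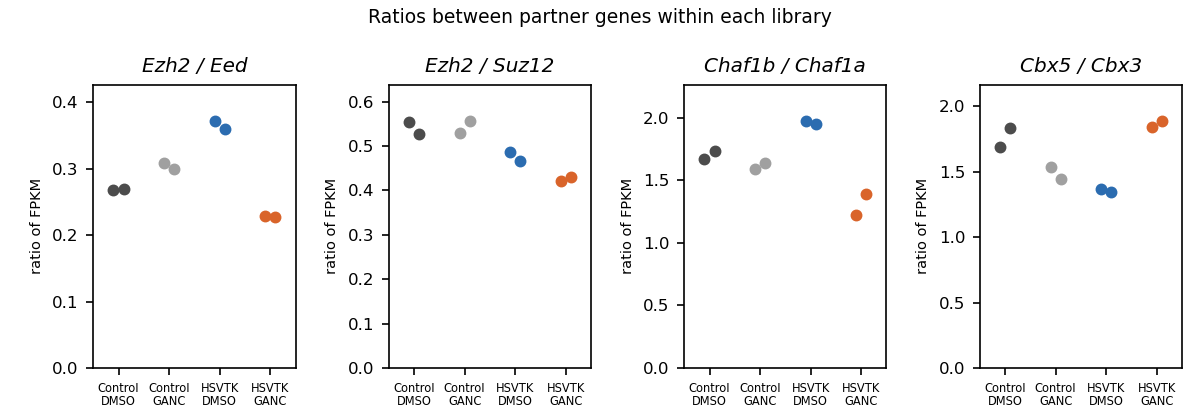
Ratio of the FPKM of 2 partner genes within each library (y axis), with 1 point per library and the 4 groups on the x axis. The ratios of Ezh2 to Eed and of Chaf1b to Chaf1a are highest in HSVTK DMSO (0.359 to 0.371 and 1.95 to 1.97) and lowest in HSVTK GANC (0.227 to 0.229 and 1.22 to 1.39), and that of Cbx5 to Cbx3 is lowest in HSVTK DMSO (1.34 to 1.37).

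The Dppa activators bind DNA together and keep the Dux gene ready for use. Dppa2 was 86.6 and 91.6 FPKM in Control DMSO, 81.7 and 82.3 in Control GANC, 80.8 and 76.2 in HSVTK DMSO and 89.6 and 93.4 in the libraries labelled HSVTK GANC. HSVTK DMSO was lowest. Dppa2 was 13.9% higher with GANC in HSVTK cells (log2 difference 0.19 ± 0.06, adjusted p = 0.0172), lower in HSVTK than Control cells under DMSO (-0.21 ± 0.06, adjusted p = 0.00643), and differed in response by 0.32 ± 0.08 (adjusted p = 0.00552). Dppa4 was 124 and 119 FPKM in Control DMSO, 118 and 118 in Control GANC, 106 and 110 in HSVTK DMSO and 107 and 118 in HSVTK GANC. Its HSVTK DMSO libraries lay below both Control groups. Dppa4 was lower in HSVTK than Control cells under DMSO (-0.20 ± 0.06, adjusted p = 0.0130), and its HSVTK drug difference of 0.03 ± 0.06 (95% interval -0.10 to 0.15) did not pass. The HSVTK drug call of Dppa2 was lost without either HSVTK DMSO library or HSVTK GANC replicate 2 (adjusted p from 0.0652 to 0.279), and its other calls without Control DMSO replicate 2 or HSVTK DMSO replicate 2 (0.0841 to 0.0919 for the interaction and 0.151 to 0.166 under DMSO). That of Dppa4 was lost without Control DMSO replicate 1 or either HSVTK DMSO library (0.0577 to 0.187). The Dux gene itself, listed as Duxf3, had at most 4 counts in a library and was left out by the filter.

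Of the 6 other regulators, 3 were lower with GANC in Control cells. With GANC in HSVTK cells edgeR called none of the 6; 1, Morc3, was below 0.05 unadjusted (-0.17 ± 0.07, adjusted p = 0.0574) and was called by DESeq2 (adjusted p = 0.0484). Rif1, a replication timing factor that also holds down the Zscan4 genes, stood at 31.4 and 32.9 FPKM in Control DMSO, 27.8 and 20.7 in Control GANC, 31.9 and 29.2 in HSVTK DMSO and 32.6 and 30.1 in the libraries labelled HSVTK GANC. Control GANC was lowest, and its replicate 2 lay far below replicate 1. Rif1 fell by 25.2% in Control cells (log2 difference -0.42 ± 0.08, adjusted p = 0.00167), with an interaction of 0.42 ± 0.11 (adjusted p = 0.00664) and a difference of 0.32 ± 0.08 between HSVTK and Control cells under GANC (adjusted p = 0.00348). The Control call held without each library, but without Control GANC replicate 2 the difference was -0.23 (adjusted p = 0.0333), and it was lost by DESeq2 (0.0511) and by the limma fits (0.0807 to 0.294). The interaction was 0.22 without Control GANC replicate 2 and was lost without HSVTK DMSO replicate 2. It was also lost by DESeq2 and by the limma fits (adjusted p from 0.0808 to 0.254). The call under GANC was lost without Control GANC replicate 2 or HSVTK GANC replicate 1, and the difference was 0.52 without Control GANC replicate 1. That call was also lost by DESeq2 and by limma on log2(FPKM + 1) and log2(FPKM + 0.1) (adjusted p from 0.115 to 0.173).

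Ncl, the nucleolin that with Trim28 and LINE1 RNA holds down Dux, was 347 and 351 FPKM in Control DMSO, 322 and 287 in Control GANC, 281 and 283 in HSVTK DMSO and 291 and 288 in the libraries labelled HSVTK GANC. Control DMSO was highest. Ncl was lower in HSVTK than Control cells under DMSO (-0.33 ± 0.05, adjusted p = 1.89e-06) and fell with GANC in Control cells (-0.21 ± 0.05, adjusted p = 0.00602), with an interaction of 0.21 ± 0.07 (adjusted p = 0.0186). Morc3, a repressor of endogenous retroviruses, was 28.7 and 29.7 FPKM in Control DMSO, 26.3 and 22.7 in Control GANC, 27.9 and 28.4 in HSVTK DMSO and 25.6 and 25.7 in HSVTK GANC. Control GANC replicate 2 was again the lowest library. Morc3 was lower with GANC in Control cells only by its own test (-0.26 ± 0.07, adjusted p = 0.0124), and its interaction did not pass.

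The Control calls of Ncl and Morc3 were lost without either Control DMSO library or Control GANC replicate 2 (adjusted p from 0.0621 to 0.120 and from 0.0709 to 0.180), and the interaction of Ncl without these or either HSVTK DMSO library (0.0834 to 0.132). Control GANC replicate 2 was also the lowest library of Smchd1, a structural protein of X inactivation and repeat silencing (2.54 FPKM against 2.87 to 3.38 in the others), and of Zmym2 (5.33 against 5.41 to 6.96), neither of which was called. In that group, replicate 2 lay below replicate 1 by a median of -0.08 on the log2 scale over the 1777 genes of at least 8000 bases at the regulators' level, and above it by 0.09 over the 1100 genes of at most 2000 bases. The part of gene length in the Control results was not tested. Dot1l, the H3K79 methyltransferase, and Spop, an adaptor of a ubiquitin ligase, ranged from 12.2 to 13.8 and from 22.5 to 24.9 FPKM and were called nowhere.

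**Figure D5:**
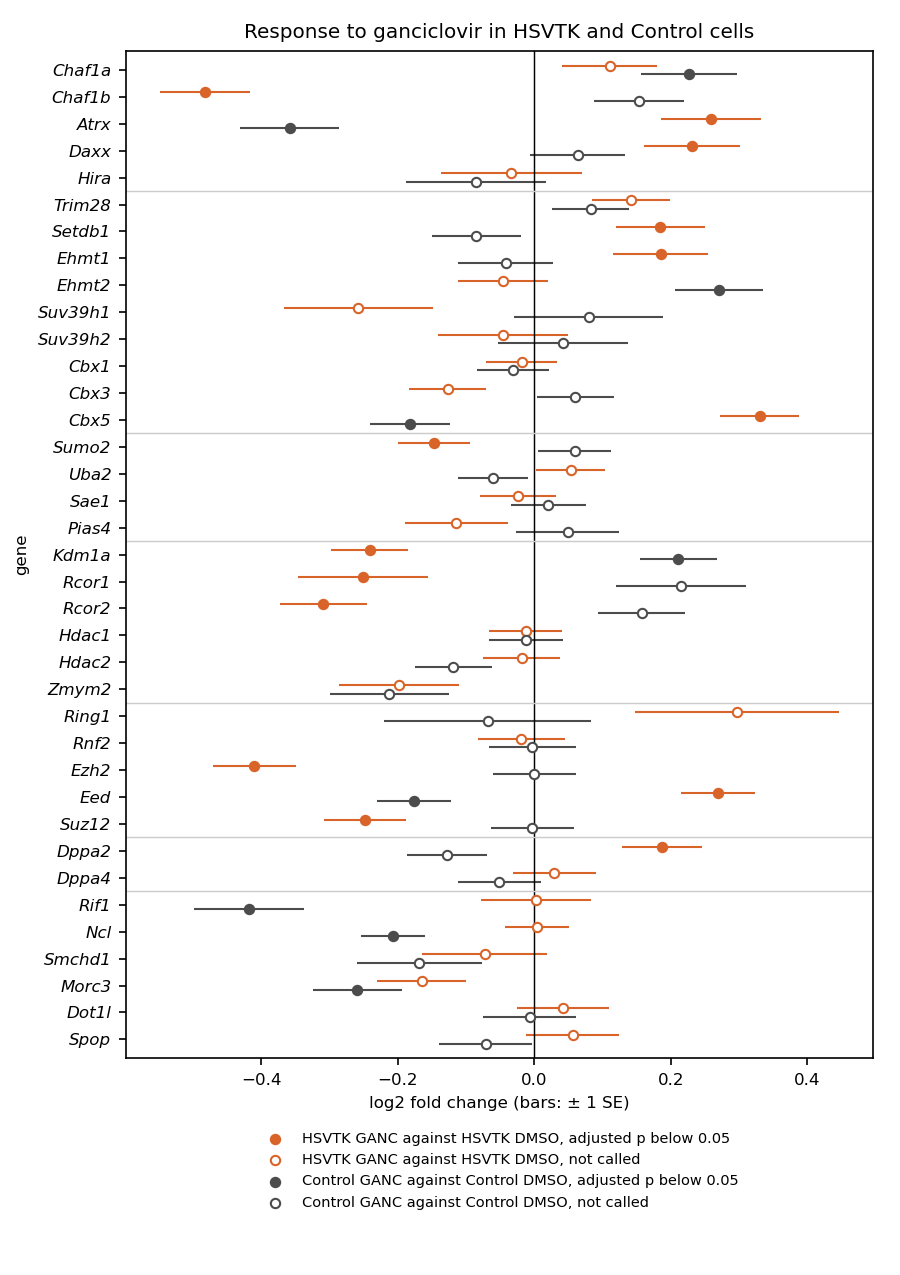
Log2 difference of GANC from DMSO (x axis) for the 37 regulators in rows, in HSVTK and in Control cells, with bars of 1 SE to either side and filled points where adjusted p was below 0.05. Chaf1b at -0.48 and Ezh2 at -0.41 are the most negative in HSVTK cells and Cbx5 at 0.33 the most positive, while Rif1 at -0.42 and Atrx at -0.36 are the most negative in Control cells.

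Of the 14 regulators called with GANC in HSVTK cells, 12 were also called in the interaction, and Daxx and Ehmt1 were not. The same share over all genes called in HSVTK cells was not counted, so it is not shown to be particular to the regulators. A set of 4 regulators (Atrx, Cbx5, Kdm1a and Eed) passed in both kinds of cell, each with opposite signs. The share of all genes doing so was not counted, and none of the 9 Control drug calls held under every other setting run. Chaf1b, Cbx5, Kdm1a, Rcor2, Ezh2 and Eed kept their HSVTK drug call and their interaction without each library in turn and under every other setting run. Both comparisons use the libraries of HSVTK cells, so their overlap is no second measurement. Under DMSO, Chaf1b, Atrx, Ehmt1, Ehmt2, Kdm1a, Eed, Suz12 and Ncl kept their call likewise, and under GANC Chaf1b, Ehmt2 and Rcor2. Every remaining call was lost without some library, under another setting or both, and not each such setting is listed. Other calls, beside that of Rif1 in Control cells, held without each library but were lost by limma on log2 FPKM: the HSVTK drug call of Suz12 (adjusted p from 0.108 to 0.113), the interaction of Atrx (0.0565 to 0.0665), Cbx5 under DMSO (0.0514 to 0.0578) and Ezh2 under GANC (0.0695 to 0.0714). Cbx1 under GANC was lost by limma, by the fit on 4 libraries and by scaling with library totals (0.0596 to 0.113).

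A further list of 90 partners, isoforms and opposing enzymes of the same complexes was all tested. With GANC in HSVTK cells 13 were higher and 18 lower, or 34.4% called, between the 28.5% of all genes and the 39.1% of genes at the regulators' level. The lowest adjusted p belonged to Pcgf5, a PRC1 subunit that fell by 60.5% (log2 difference -1.34 ± 0.14, adjusted p = 1.66e-08), followed by Epop, a PRC2 accessory protein that rose (0.55 ± 0.07), and Phf21a, a reader subunit of the Lsd1 complex that fell (-0.55 ± 0.08). Next were Phc1 of PRC1 (-0.38 ± 0.06), Kdm2b, which brings PRC1 to CpG islands (0.49 ± 0.08), and Ezh1, the second PRC2 enzyme (-0.51 ± 0.09). Within the 30 Polycomb partners 6 rose and 8 fell, within the 17 of co-repressors 1 and 4, within the 14 of H3K9 methylation 2 and 3, and within the 12 of the SUMO pathway 1 and 1. Ezh1 thus fell with Ezh2. In Control cells 10 partners rose and 6 fell, or 17.8% (8.08% of all genes, 13.6% at that level), led by Kdm3a, an H3K9 demethylase (-0.40 ± 0.06, adjusted p = 6.48e-05), and Phf21a, which rose there (0.42 ± 0.08, adjusted p = 0.00116).

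The drug responses differed for 28 of the 90 partners, or 31.1% (25.6% of all genes, 36% at the regulators' level), with 11 more positive and 17 more negative in HSVTK cells. Phf21a (-0.97 ± 0.11, adjusted p = 1.26e-07), Pcgf5 (-1.63 ± 0.19) and Phc1 (-0.60 ± 0.08) led the negative side and Kdm3a the positive (0.61 ± 0.08). Between the kinds of cell under DMSO, 14 partners were higher and 21 lower in HSVTK, or 38.9% (33.7% of all genes, 46.7% at that level), led by Kdm3a (-1.36 ± 0.06, adjusted p = 1.81e-16), the SUMO protease Senp3 (0.49 ± 0.05), Pcgf5 (1.00 ± 0.13) and Pcgf1, the subunit of a PRC1 form with Kdm2b (-1.09 ± 0.16). Under GANC 6 were higher and 24 lower, or 33.3% (26.1% of all genes, 35.2% at that level), among them Kdm3a (-0.75 ± 0.06) and Mta1 of a deacetylase complex (-0.60 ± 0.07).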

How the data were processed

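The 8 RNA-sequencing libraries form 4 groups of mouse embryonic stem cells, assigned by cell kind and treatment as the titles give them. Per the labels' protocols, libraries came from phenol and chloroform RNA and a VAHTS V6 kit. Tools in the submitters' processing notes, given without roles, are DESeq2 1.40.2, featureCounts 2.0.1, HISAT2 2.1.0 and fastp 0.23.2, on GRCm39. Whether counting used strand or reads with several matches, and with which annotation, the sources used here do not give, and reads of overlapping genes on opposite strands may not be told apart.

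The authors deposited whole-number read counts per gene, without normalization, and a table of FPKM. Per a check of all 456080 values, the deposited FPKM equal those counts divided by gene length and by the library's assigned counts, within 1e-05. They serve here as levels. Only columns of the 8 libraries are in the tables.

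Counts were tested with edgeR 4.0.16 (R 4.3.3) and its quasi-likelihood F test, with TMM scaling, filterByExpr by group and 1 mean per group over all 8 libraries (4 residual degrees of freedom, biological coefficient of variation 6.31%). It kept 17976 genes, over which p-values were adjusted by the Benjamini-Hochberg method; a gene was called below 0.05. The SE was taken as the size of the log2 fold change over the root of F. Alternatives were RLE scaling, scaling by library totals, no filter, DESeq2 1.42.0, a replicate block, limma 3.58.1 on log2(FPKM + 1) or log2(FPKM + 0.1), limma with a mean FPKM of at least 1, a fit of only the 4 libraries compared, and leaving out each library. The procedure was tested on simulated data.

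The regulators, partners and marker lists were chosen with earlier results of these data known. All regulators may be named; of the partners, up to 6 called genes with the lowest adjusted p in each comparison; and a few markers as checks of the labels. Promoter sequences came from a RefSeq table of GRCm38.p6, matched by symbol.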

Additional observations from a re-analysis of the deposited data

Results flagged for a closer look

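The drug responses of HSVTK and Control cells differed for 15 of the 37 regulators by the interaction test of edgeR, which asks whether the log2 difference of GANC from DMSO was the same in both kinds of cell; 25.6% of all genes tested passed it. With 2 libraries per group, no group was large enough for a search for a sample that stands far from the others. The difference, HSVTK minus Control, was more positive for Atrx (0.62), Cbx5 (0.51), Eed (0.45), Rif1 (0.42), Dppa2 (0.32), Setdb1 (0.27) and Ncl (0.21). It was more negative for Chaf1b (-0.64), Rcor2 (-0.47), Rcor1 (-0.47), Kdm1a (-0.45), Ezh2 (-0.41), Ehmt2 (-0.32), Suz12 (-0.25) and Sumo2 (-0.21).

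In Atrx, Cbx5, Kdm1a and Eed both responses passed and had opposite signs. In Rif1, Ncl and Ehmt2 only the Control response passed: Rif1 was -0.42 with GANC in Control and 0.00 in HSVTK cells, Ncl -0.21 and 0.00, and Ehmt2 0.27 and -0.05. In the other 8 only the HSVTK response passed. The interaction rests on the libraries labelled HSVTK GANC, in which genes of the 2C-like state were higher than in HSVTK DMSO.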

How the results depend on the processing

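No called regulator changed sign under any setting run, but scaling by library totals turned the split of calls under GANC from 3 higher and 6 lower to 7 and 4, and over all genes from 42.8% to 54.1% higher (from 46.7% to 54.3% with GANC in HSVTK cells). With limma on log2(FPKM + 1) and log2(FPKM + 0.1), called regulators numbered 7 and 8 (against 14) with GANC in HSVTK cells, 7 and 7 (against 15) in the interaction, and 10 and 10 (against 17) under DMSO. In Control cells they numbered 0 and 0 (against 9), with 13 below 0.05 unadjusted in each (15 by edgeR), and 2 with limma at a mean FPKM of at least 1. Between the kinds of cell under GANC, log2(FPKM + 0.1) and the fit of only 4 libraries each gave 5 (against 9). Over all genes the same limma fits gave 2615 and 2678 (against 5119) in HSVTK cells, 29 and 47 (against 1453) in Control cells, 1981 and 2127 (against 4595) in the interaction, 3652 and 3692 (against 6060) under DMSO, and 2288 and 2381 (against 4685) under GANC. In Control cells the limma fit with a minimum gave 647 and the 4-library fit 942. The cause was not tested.

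Leaving out 1 library gave 7 to 18 regulators and 3313 to 5627 genes in HSVTK cells, 1 to 14 and 433 to 2010 in Control cells, 9 to 15 and 3415 to 4638 in the interaction, 10 to 19 and 4399 to 6560 under DMSO, and 7 to 13 and 2999 to 4497 under GANC. The lowest came without HSVTK DMSO replicate 1 (regulators) or 2 (genes) in HSVTK cells and without Control DMSO replicate 2 in Control cells, where 592 genes were called without Control DMSO replicate 1 and 728 without Control GANC replicate 2. Genes in HSVTK cells numbered 3380 without HSVTK DMSO replicate 1, and 2999 under GANC belongs to HSVTK GANC replicate 2. A group then has 1 library, assumed to vary like the others.

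With a replicate block the called regulators were 12, 6, 14, 17 and 8 in the 5 comparisons. Replicate numbers did not pair the libraries, with correlations of deviations from -0.07 to 0.03 between groups. Scaling by library totals moved the median of all genes by at most 0.051 on the log2 scale.

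With 2 libraries per group, small differences cannot be resolved, and messenger levels say nothing of protein.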
